A study of Mus musculus and Homo sapiens with 24 samples.

Results

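The genes of oxidative phosphorylation were followed through 24 RNA-seq libraries of mouse bone marrow progenitors and the human leukaemia line K-562. They were chosen by symbol as protein-coding genes for subunits of complex I (NDUFA, NDUFB, NDUFC, NDUFS and NDUFV, without the NDUFAF assembly factors), complex III (UQCR), complex IV (COX4 to COX8) and the ATP synthase or complex V (ATP5), together with the protein-coding genes of mitochondrial DNA (MT-). No measured value entered that rule. It found 95 of the 54446 genes in the mouse files (82 nuclear and 13 mitochondrial) and 99 of the 58721 in the human files (86 nuclear and 13 mitochondrial). The subunit NDUFA4, once placed in complex I, was counted with complex IV.

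Oxidative phosphorylation couples electron transfer along the inner mitochondrial membrane to ATP synthesis. Complexes I, III and IV pump protons as electrons pass from NADH to oxygen, and complex V uses the return of those protons to make ATP. The complexes are built from subunits of 2 genomes: mitochondrial DNA encodes a small core, which is transcribed as long precursors from both strands and cut at the tRNAs that lie between the genes, while the other subunits are encoded in the nucleus and imported. Resting haematopoietic stem cells are known for a low reliance on this pathway and raise it as they divide and differentiate.

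The mouse cells were lineage-negative, Kit+ (LK) bone marrow cells, a bead-enriched fraction that holds stem and progenitor cells. WT and Tet2-/- (KO) LK cells came from mice of both sexes aged 6 to 8 weeks on a C57BL/6 background. In a second LK experiment, cells of mice also aged 6 to 8 weeks received by electroporation an antisense oligonucleotide (ASO) that blocks RNA of the IAP endogenous retroviruses, or a control ASO. The labels do not give the Tet2 genotype of these cells. K-562, a line from a chronic myeloid leukaemia, was WT or TET2-/- (TET2 KO), and each genotype carried a lentiviral shRNA, either shControl or shMBD6 in the labels, under puromycin selection; a supplement of the study writes siNC and siMBD6 for these arms. MBD6 is a methyl-binding protein that recruits a histone deubiquitinase. The labels call the LK libraries totalRNA and the K-562 libraries mRNA, so library type and cell system cannot be told apart between them. Each of the 8 groups had 3 libraries, and nothing in the labels says that K-562 libraries came from separate clones, so p-values measure the spread between these libraries, which may be technical.

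Levels are CPM, gene counts scaled to library size with TMM factors, and a gene was called changed at an adjusted p under 0.05 in edgeR's quasi-likelihood test. Libraries held 45461555 to 70008610 gene counts in LK cells and 27625013 to 39877202 in K-562. In LK cells the mean Tet2 level was 92.5 CPM in WT (SD 3.25, n = 3) and 27.4 CPM in Tet2 KO (SD 4.52). MBD6 was at 82.5 ± 5.60 CPM with shControl and 38.0 ± 1.09 CPM with shMBD6 in WT K-562, and at 77.2 ± 4.59 and 43.3 ± 0.800 CPM in TET2 KO. TET2 itself was at 30.8 ± 2.63 CPM in WT and 33.3 ± 0.688 CPM in TET2 KO K-562 with shControl, so its gene count does not check that label. LK cells expressed all 9 progenitor markers, K-562 expressed 9 of its 10 identity markers in every group, and that list summed to 1369 to 1495 CPM in TET2 KO against 2604 to 3629 CPM in WT. The WT shControl libraries stood apart in K-562: they held 241715 to 351502 counts of the ERCC spike-in RNAs, against 104291 to 145366 in the other 9 libraries.

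Most K-562 directions depended on the choice between ERCC and TMM scaling. The study put an ERCC factor into its DESeq2 size factors where a spike-in applied. For chromatin-associated and nascent RNA it added ERCC to purified RNA, but its methods do not describe this step for whole-cell RNA. Whether the spike-in was set to cells or to RNA in these libraries is thus not known, so ERCC scaling need not give absolute amounts. Scaling to ERCC counts in place of TMM raised the median log2 fold change of all 17936 tested genes to 1.26 for TET2 KO against WT with shControl, 0.31 with shMBD6, 1.13 for shMBD6 in WT and 0.18 in TET2 KO, and moved the interaction to -0.95. ERCC scaling called 15959 of these genes higher for TET2 KO with shControl, 9700 with shMBD6, 15437 for shMBD6 in WT and 6869 in TET2 KO. It called 13265 negative for the interaction. K-562 directions below are therefore relative to all genes. Measured from the all-gene median under ERCC scaling, the median nuclear member stood at -0.28, -0.04, -0.17, 0.06 and 0.22 for the same 5 comparisons, and the TMM medians from the all-gene median were -0.28, -0.04, -0.17, 0.06 and 0.23. ERCC scaling changes only the size factor of each library, which shifts all genes of a comparison nearly alike. The match therefore follows from the arithmetic and is not separate evidence.

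The nuclear members took 1.05% to 1.22% of gene counts in K-562 and 0.646% to 0.696% in LK cells, as group means. The former are mRNA and the latter total RNA libraries, so shares are not compared between the systems. In K-562 the share was 1.19%, 1.24% and 1.22% in the WT shControl libraries. It was 1.11%, 1.04% and 1.13% with shMBD6 in WT, 1.07%, 1.02% and 1.06% in TET2 KO with shControl, and 1.09%, 1.07% and 1.08% in TET2 KO with shMBD6. Each of those 9 libraries lay below the 3 WT shControl libraries. The mitochondrial members took 5.20%, 4.98% and 5.18% in WT shControl and 5.06%, 5.16% and 4.63% in TET2 KO shControl, which overlap. With shMBD6 they took 4.49%, 4.70% and 4.52% in WT and 4.04%, 4.41% and 4.34% in TET2 KO, below the shControl libraries of the same genotype in both. In LK cells the mitochondrial share was 0.996%, 0.962% and 0.986% in WT and 0.994%, 0.895% and 0.745% in Tet2 KO. It was 1.53%, 1.74% and 1.75% with the control ASO and 1.49%, 1.53% and 1.52% with the IAP ASO, where the highest library lay level with the lowest control library.

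**Figure D1:**
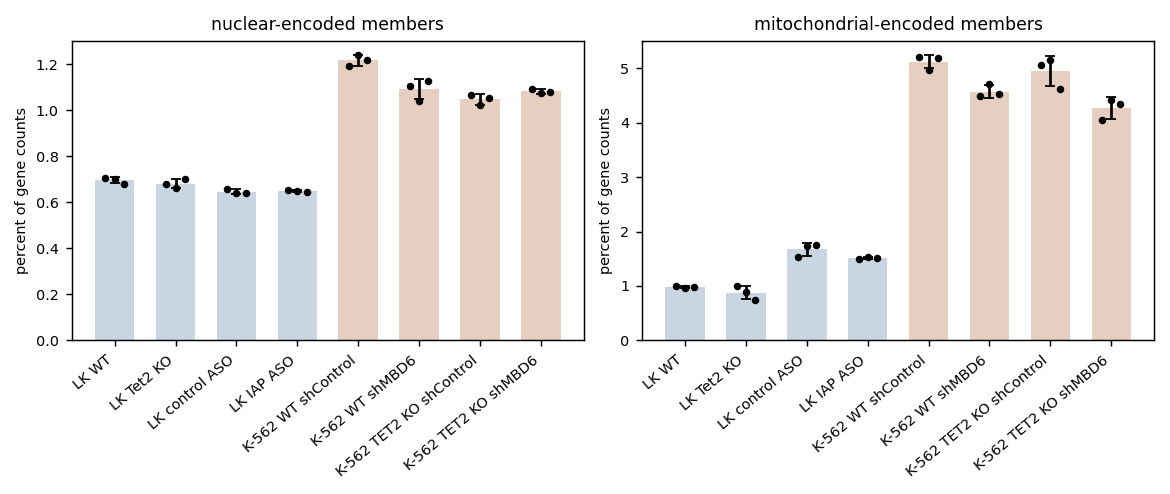
Percent of all gene counts on nuclear-encoded (left) and mitochondrial-encoded (right) members in the 8 groups. Bars are means, error bars SD over 3 libraries and points the libraries. The WT shControl libraries hold the highest nuclear share in K-562 (1.19% to 1.24%), and these are shares of counts, not amounts of RNA. Under ERCC scaling 78 nuclear members were called higher in TET2 KO shControl and 77 in WT shMBD6 than in WT shControl. Of all 17936 genes 15959 and 15437 were called higher there.

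Per kilobase of exon, the nuclear members spanned a wide range. In WT shControl K-562 the highest was NDUFS5, an accessory subunit of complex I, at 486 CPM per kb, followed by NDUFB7 at 351, ATP5IF1, the inhibitor of ATP hydrolysis by complex V, at 349, and ATP5F1B, the catalytic beta subunit, at 331. In WT LK cells the order was led by the catalytic core of complex V, Atp5a1 at 239 and Atp5b at 228 CPM per kb, and then by the complex IV subunits Cox6a1 at 211 and Cox8a at 186. The median nuclear member lay at 30.0 CPM per kb in WT shControl K-562 and 40.6 in WT LK cells. Libraries of the 2 species were normalised apart, so these levels are not compared with each other.

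Several complex IV subunits exist as a common form and a form of muscle, lung or testis, and the common forms dominated. In K-562 the common COX4I1 was at 927, 938 and 966 CPM in WT shControl, while COX4I2 and COX6A2 had 0 counts in all 12 libraries and COX7A1 and COX8C 2 and 3 counts in all. These 4, the ATP synthase copy ATP5MGL and the read-through NDUFC2-KCTD14 did not pass the low-count filter, which left 80 nuclear members for testing. In LK cells Cox8b, Cox8c, Cox7b2, Ndufa4l2 and the read-through Atp5o did not pass, which left 77. Cox6b2, the testis form of a complex IV subunit, was an exception in LK cells: it was at 32.5, 29.8 and 27.5 CPM in WT and 31.6, 30.0 and 37.8 CPM in Tet2 KO. In the ASO experiment it was at 1.72, 1.11 and 2.02 CPM with the control and 1.66, 2.03 and 1.85 CPM with the IAP ASO. Both pairs of groups overlapped, and the experiments differ in handling and were normalised apart. In K-562 the testis form COX7B2 had 0 counts in the 3 WT shControl libraries and 0.442, 0.589 and 0.509 CPM in TET2 KO shControl, a level far below the 85.0, 76.5 and 81.4 CPM of the common COX7B in the latter.

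The 13 mitochondrial members kept a similar order in the K-562 groups. In WT shControl, per kilobase, MT-CO2 was highest at 8692 ± 115 CPM per kb (SD, n = 3), followed by MT-ND4 at 7856 ± 379, MT-CO3 at 7186 ± 19.1, MT-ATP6 at 7177 ± 336, MT-CO1 at 6380 ± 110 and MT-ND2 at 5421 ± 255. A second tier held MT-CYB, the one complex III subunit of this genome, at 2967 ± 89.0, MT-ND1 at 2601 ± 17.2 and MT-ATP8 at 2260 ± 313. MT-ND5 at 845 ± 24.9, MT-ND3 at 744.5 ± 44, MT-ND4L at 738 ± 67.8 and MT-ND6 at 233 ± 15.3 were lowest. MT-CO3 and MT-ATP6 did not differ beyond their spread, nor did MT-ND3 and MT-ND4L, while MT-ND6, which lies on the opposite strand to the other 12, was lowest in every K-562 group. MT-ATP8 was the least reproducible, with 27644, 17281 and 8232 counts in the TET2 KO shControl libraries, and was called in no comparison.

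In LK cells 7 of the 13 were abundant. WT cells had mt-Co1 at 2551 ± 30.7 CPM per kb, mt-Cytb at 1593 ± 35.5, mt-Nd1 at 1488 ± 58.3, mt-Nd2 at 718 ± 16.4, mt-Nd5 at 712 ± 20.4, mt-Nd4 at 499.8 ± 25.9 and mt-Nd6 at 164 ± 15.8. The other 6 (mt-Co2, mt-Co3, mt-Atp6, mt-Nd3, mt-Nd4l and mt-Atp8) lay between 1.53 and 14.8 CPM per kb. Their human orthologues MT-CO2, MT-CO3 and MT-ATP6 were among the highest in K-562. The LK libraries are of total RNA and the K-562 libraries of mRNA, and the part of library type in either order was not tested. Of every 50-base word of the mouse mt-Co2, mt-Co3, mt-Atp6, mt-Nd4l and mt-Nd3, between 98% and 100% also occurs in an annotated nuclear copy, against at most 62.2% for the other 8 mouse members and 49.5% for any human one. Reads without a unique position are not counted, so the levels and changes of those 5 mouse genes are uncertain. No such copy of the low mt-Atp8 is annotated, and sequence outside annotated transcripts was not searched.

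In the LK Tet2 comparison few members passed the test. Among 77 nuclear members, 0 were higher and 2 were lower in Tet2 KO, or 2.60%, beside 6.44% of all 17481 genes called in either direction, 4.14% higher and 2.31% lower. The estimates nevertheless lay mostly on one side: 72 of 77 were below 0, including all 36 of complex I and all 8 of complex III. The median log2 fold change was -0.10 beside -0.01 for all genes. An unadjusted p under 0.05 in the edgeR test was found for 24 of the 77, beside 4038 of all 17481 genes. The estimates share 6 libraries, so they are not independent, and no test was made of the list. Sex was not balanced between the groups. Y-linked genes averaged 5.31, -0.92 and 0.08 on the log2 CPM scale in the WT libraries, and 1.00, 5.39 and 5.25 in Tet2 KO. The part of sex in these estimates was not tested beyond the covariate named below.

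The called members were a complex I and a complex V subunit. Ndufa12, an accessory subunit of complex I, was at 34.7, 33.7 and 38.7 CPM in Tet2 KO and 44.9, 46.3 and 43.5 CPM in WT. The groups did not overlap, and the log2 fold change was -0.33 (SE 0.0698, adjusted p 0.0317). Atp5mpl, a small membrane subunit of complex V, was at 41.7, 38.9 and 40.4 CPM in Tet2 KO and 48.4, 49.3 and 48.6 CPM in WT, a log2 fold change of -0.27 (SE 0.055, adjusted p 0.0282). Both calls ended with a replicate block, with a covariate for Y-linked genes, and when any 1 of the 3 WT libraries or Tet2 KO replicate 2 was left out. Cox4i1, the common form of a complex IV subunit, was at 239, 234 and 260 CPM in Tet2 KO and 249, 251 and 242 CPM in WT, which overlap (log2 fold change -0.02, SE 0.0582). Of the mitochondrial members only mt-Nd3 was called, at 15, 4 and 14 counts in Tet2 KO against 44, 34 and 78 in WT, and it is among the uncertain genes. The other 12 ranged from -0.50 for mt-Nd4l to 0.05 for mt-Atp8. Marker lists moved in the same libraries: the 9 neutrophil genes summed to 1423 to 2425 CPM in Tet2 KO and 2779 to 4356 CPM in WT (2 called lower, Ly6g under 1 CPM in both groups), and the 7 mast cell and basophil genes to 337 to 422 and 683 to 785 CPM (5 called lower). The 9 progenitor genes summed to 5378 to 7483 CPM in Tet2 KO and 7599 to 9805 CPM in WT, the 10 dendritic genes to 733 to 797 and 509.7 to 581 CPM, the 8 B lymphoid genes to 81.1 to 132 and 55.1 to 66.8 CPM, the 6 T and NK genes to 84.7 to 110.1 and 122 to 155 CPM, and the 6 megakaryocyte genes to 210.2 to 256 and 186 to 203 CPM, again without overlap. Their part in the members' values was not tested, and in bulk RNA fewer cells of a type and less RNA per cell cannot be told apart.

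Of the members called in the IAP ASO comparison, most nuclear ones were higher and most mitochondrial ones lower. Of 77 nuclear members, 25 were higher and 4 lower with the IAP ASO, beside 19.9% of all 16483 genes called higher and 19.7% called lower (39.6% in either direction). As percentages of the nuclear members these are 32.5% and 5.19% (37.7% in either direction). The nuclear share of gene counts overlapped, at 0.656%, 0.650% and 0.645% with the IAP ASO and 0.659%, 0.641% and 0.640% with the control. Of the 13 mitochondrial members, 1 was higher and 8 were lower. The median log2 fold change was 0.08 for nuclear and -0.18 for mitochondrial members, beside -0.01 for all genes. Complex III was called most often, with 6 of 8 nuclear members higher and Uqcrq lower, and complex I had 13 of 36 higher and 1 lower. Complex V had 4 of 17 higher (23.5%) and 0 lower, a rise near the share of all genes. Complex IV had 2 of 16 higher (12.5%), below that share, and 2 lower.

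Complex I subunits led the rise. Ndufb10 was at 32.9, 30.7 and 30.2 CPM with the IAP ASO and 24.5, 24.2 and 21.8 CPM with the control, a log2 fold change of 0.41 (SE 0.0617, adjusted p 3.03e-06). Ndufa8 was at 43.9, 42.8 and 41.7 against 35.6, 34.3 and 34.1 CPM (0.30, SE 0.0506). Ndufb4 and Ndufa12 rose by 0.30 and 0.27 on the log2 scale. Every IAP ASO library lay above every control library for these 4. Of the 3 genes that encode the identical subunit c of the complex V rotor, Atp5g1 (0.26) and Atp5g3 (0.27) rose, while Atp5g2 was at 112, 105 and 103 against 116, 112 and 109 CPM and was not called (-0.08, SE 0.0396).

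The largest fall among abundant nuclear members was that of Cox7a2l, counted here with complex IV. It was at 71.3, 68.8 and 69.3 CPM with the IAP ASO and 88.3, 88.5 and 90.7 CPM with the control (log2 fold change -0.35, SE 0.0402, adjusted p 2.42e-08). Ndufv3, an accessory subunit of the NADH-binding arm, fell by 0.24 and Uqcrq, a complex III subunit, by 0.15. Cox6a2, the muscle form, fell by 1.43 from a low level, 1.42, 1.93 and 1.29 CPM to 0.537, 0.685 and 0.50 CPM, while its common form Cox6a1 was not called (0.03, SE 0.0439). Among the mitochondrial members that are not in doubt, mt-Nd5 was at 1824, 1858 and 1839 CPM against 1949, 2219 and 2231 CPM (-0.21, SE 0.033) and mt-Cytb at 2427, 2494 and 2427 against 2692, 2867 and 2902 CPM (-0.20, SE 0.0256). Only mt-Nd1 rose, by 0.08, and 0 members were called higher under DESeq2, when libraries were scaled to nuclear protein-coding genes, or without any 1 of the 3 IAP ASO libraries. The uncertain mt-Co3 fell by 0.32. A single fit of all 12 LK libraries, which also uses the wider spread of the Tet2 libraries, left 12 nuclear members higher and 3 lower and 0 mitochondrial members called, and leaving out control ASO replicate 1 gave 39 higher and 5 lower. Without IAP ASO replicate 3, 5 mitochondrial members were called, all lower.

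Other mitochondrial genes were counted in the same comparison, beside 19.9% of all genes higher and 19.7% lower. Of 77 mitochondrial ribosomal protein genes, 50 were higher and 2 lower with the IAP ASO (median 0.24), led by Mrps18b (0.63). Of 15 complex I assembly genes 10 were higher and 0 lower, with Ndufaf4 at 0.76, and of 17 genes for processing and decay of mitochondrial RNA 12 were higher and 0 lower, with Pnpt1, a mitochondrial exoribonuclease subunit, at 0.51. Cytochrome c (Cycs 0.42) and the cytochrome c1 subunit of complex III (Cyc1 0.19) both rose. The PGC-1 family coactivators Ppargc1b (0.71) and Pprc1 (0.64), which promote mitochondrial biogenesis, were among 4 of 7 nuclear regulators that rose. Of 14 genes for maintenance and transcription of mitochondrial DNA 2 were higher (Twnk, its helicase, 0.37), below the share of all genes. Glycolysis went both ways, with 3 of 18 higher and 6 lower, including Aldoc at -0.79. Markers moved too: the 12 erythroid genes summed to 699 to 704 CPM with the IAP ASO and 409 to 454 CPM with the control (8 called higher, Alas2 under 1 CPM in both groups), and 5 of 9 neutrophil genes were lower. Their part in these values was not tested.

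In K-562 with shControl, most nuclear members were lower in TET2 KO than in WT relative to all genes. Of 80 tested, 54 were lower and 5 higher by TMM, beside 20.7% of all genes lower and 22.2% higher (42.8% in either direction). Under ERCC scaling 78 were called higher and 0 lower, beside 15959 and 222 of all 17936 genes. As percentages of the members the TMM counts are 67.5% and 6.25%. The median log2 fold change was -0.28 and 70 of 80 estimates were below 0. All complexes took part: 22 of 37 were lower in complex I, 7 of 9 in complex III, 9 of 15 in complex IV and 16 of 19 in complex V. The mitochondrial members did not share this shift: 4 were lower and 1 higher, with a median of 0.01.

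**Figure D2:**
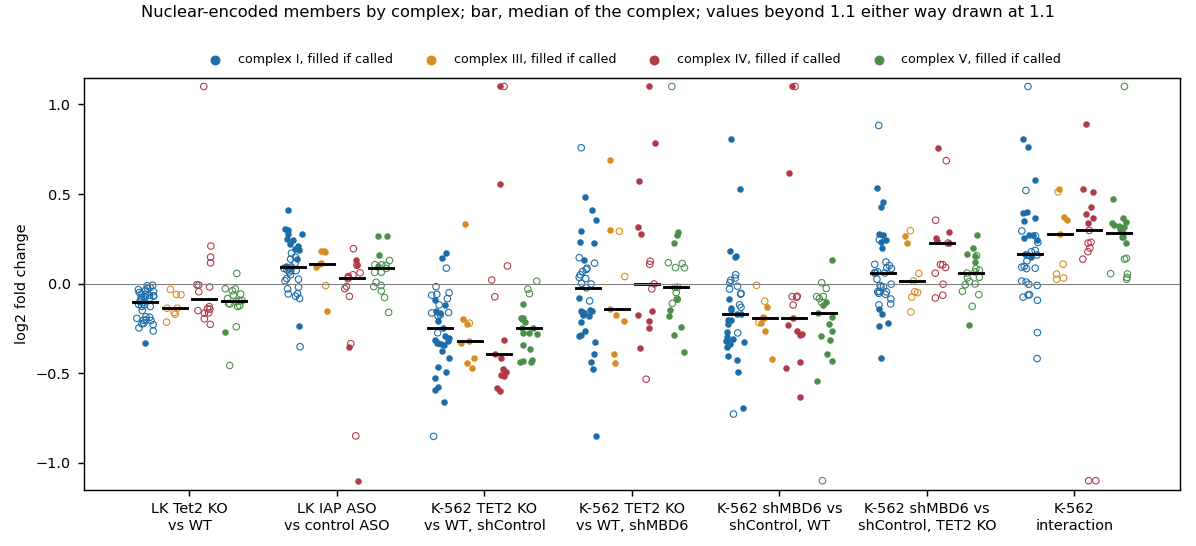
Log2 fold change of each nuclear-encoded member (points, filled where called) by complex in the 7 comparisons, with the median of each complex as a bar. In TET2 KO against WT with shControl all 4 complexes lie below 0 by TMM (medians -0.25, -0.32, -0.39 and -0.25), an order that ERCC scaling turns to above 0.

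The largest falls included accessory and core subunits. NDUFA1, a membrane subunit of complex I, was at 54.9, 41.7 and 51.7 CPM in TET2 KO and 71.6, 83.0 and 79.8 CPM in WT, a log2 fold change of -0.66 (SE 0.0972, adjusted p 9.93e-06). COX6A1, the common form of a complex IV subunit, was at 30.8, 30.1 and 32.6 against 48, 42.9 and 50.8 CPM (-0.60, SE 0.0723). NDUFS7, a core subunit that carries an iron-sulfur cluster on the path to ubiquinone, was at 112, 111 and 123 against 172, 176 and 174 CPM (-0.59, SE 0.0406, adjusted p 1.58e-10). Other annotated genes overlap 51.4% of the NDUFS7 exons, so reads there may be shared. NDUFA4 fell by 0.58, NDUFB7 by 0.53 and COX6B1 by 0.51. COX4I1 was at 657, 656 and 671 CPM against 927, 938 and 966 CPM (-0.51, SE 0.0379). The TET2 KO libraries lay below all WT libraries for each of these 7.

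Of the 5 members that rose, COX5A and UQCRB changed most among those at 5 CPM or more. COX5A, a matrix-side subunit of complex IV, was at 147, 139 and 149 CPM in TET2 KO and 89.9, 105 and 99.6 CPM in WT (0.56, SE 0.0664, adjusted p 6.19e-07). UQCRB, a ubiquinone-binding subunit of complex III, was at 302, 283 and 282 against 223, 235 and 230 CPM (0.33, SE 0.0401). NDUFB9 rose by 0.17 and NDUFA5 by 0.14, 2 calls that ended when the trend with gene length and GC content was taken out, and the fifth was COX7B2. COX5A lies on chromosome 15, where the median of all 610 tested genes was 0.55 with 390 higher and 8 lower. UQCRB and NDUFB9 lie on the long arm of chromosome 8, where the median of 381 genes was 0.44 with 217 higher and 25 lower, and NDUFA5 on chromosome 7, where the median of 875 genes was 0.21. WT and TET2 KO are 2 populations of the line, and the part of these chromosomes in the members' values was not tested.

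With shMBD6 in both genotypes, more nuclear members were lower than higher in TET2 KO by TMM, and the median lay near 0. TET2 KO had 17 nuclear members higher and 32 lower than WT, beside 22.9% of all genes higher and 21.6% lower (44.5% in either direction), and the median was -0.02. Under ERCC scaling 57 were higher and 2 lower, beside 9700 and 1047 of all 17936 genes. COX5A was at 157, 161 and 149 CPM against 93.1, 78.3 and 100 CPM (0.78, SE 0.0662), UQCRB at 342, 340 and 333 against 215, 195 and 219 CPM (0.69, SE 0.0401) and COX5B, the zinc-binding subunit of complex IV, at 321, 308 and 297 against 215, 175 and 232 CPM (0.57, SE 0.0864). NDUFC2 rose by 0.48, NDUFB9 by 0.41 and NDUFA3 by 0.36, the last a call that ended when only the 6 libraries of the comparison were fitted and without any 1 of WT shMBD6 replicates 1 and 2 and TET2 KO shMBD6 replicate 2. Chromosome 15 and the long arm of chromosome 8 again had medians of 0.54 and 0.45. Among the falls, NDUFS7 was at 116, 116 and 112 against 149, 157 and 159 CPM (-0.44, SE 0.0406), and UQCR11 fell by 0.44, UQCRC1, a core protein of complex III, by 0.39 and ATP5PO, part of the complex V stalk, by 0.38. NDUFV2 (-0.85) and NDUFA9 (-0.39) fell too, both low-count genes, and other annotated genes overlap 28.4% of the NDUFV2 exons. Without WT shMBD6 replicate 2, whose nuclear share was the lowest of its group, 10 were higher and 28 lower.

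The knockdown of MBD6 lowered most nuclear members in WT K-562 relative to all genes. With shMBD6, 45 of 80 were lower and 8 higher than with shControl, beside 19.2% of all genes lower and 20.4% higher (39.6% in either direction), with a median of -0.18. Under ERCC scaling 77 were higher and 0 lower, beside 15437 and 38 of all 17936 genes. With the trend with gene length and GC content taken out, the split was 30 lower and 11 higher. NDUFB1, an accessory subunit of complex I, was at 48.7, 40.4 and 52.4 CPM with shMBD6 and 71.1, 78.7 and 78.3 CPM with shControl (-0.69, SE 0.0674, adjusted p 7.25e-08). COX5B was at 215, 175 and 232 against 299, 347 and 318 CPM (-0.63, SE 0.0865). ATP5IF1 was at 550, 465 and 583 against 740, 801 and 791 CPM (-0.55, SE 0.0567), and NDUFB2, COX6A1 and COX7A2 fell by 0.49, 0.47 and 0.44. In each of these 6 the groups did not overlap.

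COX7C, a small subunit of complex IV, went the other way. It was at 783, 711 and 773 CPM with shMBD6 and 493, 491 and 492 CPM with shControl in WT (0.62, SE 0.0389, adjusted p 1.35e-10). In TET2 KO it was at 588, 560 and 621 against 355, 358 and 335 CPM (0.76, SE 0.0391, adjusted p 8.4e-12). These 2 comparisons use different libraries, and in both the shMBD6 libraries lay above all shControl libraries of the genotype. NDUFV2, a core subunit at low counts, was at 6.19, 5.43 and 5.33 against 3.55, 3.26 and 2.89 CPM in WT (0.80, SE 0.149). NDUFV3 rose by 0.18 in WT and by 0.28 in TET2 KO. NDUFS4 (0.15), NDUFB4 (0.15) and the catalytic ATP5F1B (0.13) rose in WT by small amounts, and the NDUFB4 call ended when libraries were scaled to nuclear protein-coding genes and without any 1 of 5 of the 6 libraries.

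In TET2 KO K-562 the share of nuclear members called after the knockdown lay near that of all genes. With shMBD6, 20 of 80 nuclear members (25.0%) were higher and 6 (7.50%) lower than with shControl, with a median of 0.06. Of all genes 18.5% were higher and 16.3% lower (34.8% in either direction, beside 32.5% of the members). Under ERCC scaling 57 were higher and 1 lower, beside 6869 and 1055 of all 17936 genes. Without TET2 KO shControl replicate 2, the library of lowest nuclear share in its group, 12 of 80 were higher and 6 lower by TMM. After COX7C the largest rises among called members at 5 CPM or more were those of NDUFA1, at 66.2, 64.5 and 72.5 against 54.9, 41.7 and 51.7 CPM (0.45, SE 0.0972), and of NDUFA2, an accessory subunit of complex I, at 39.7, 37.7 and 37.6 against 29.1, 27.8 and 28.6 CPM (0.43, SE 0.0757). COX7B and ATP5MK, a small complex V subunit, rose by 0.29 and 0.27. NDUFA1 and COX7B lie on the X chromosome, where the median of 648 genes was 0.22 with 255 higher and 63 lower; its part in their values was not tested. Among the falls, NDUFAB1, the mitochondrial acyl carrier protein, fell by 0.24, ATP5IF1 by 0.23, NDUFB2 by 0.22 and NDUFS8 by 0.17.

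The difference between the genotypes in the response to shMBD6 was tested as an interaction, taken as the shMBD6 effect in TET2 KO minus that in WT. It was called for 36 of 80 nuclear members, or 45.0%, all 36 positive and 0 negative, beside 10.3% of all genes positive and 11% negative (21.3% in either direction). The median was 0.24 and 70 of 80 estimates were above 0. With TMM the called members numbered 13 of 37 in complex I, 4 of 9 in complex III, 7 of 15 in complex IV and 12 of 19 in complex V. ERCC scaling reversed this to 0 positive and 73 negative, beside 56 and 13265 of all 17936 genes, with an all-gene median of -0.95. Taking out the length and GC trend gave 26 positive and 1 negative. Leaving out 1 library at a time gave 27 to 41 called, all positive. The interaction uses the WT shControl libraries, as do the TET2 KO contrast with shControl and the shMBD6 contrast in WT, so these 3 counts are not separate evidence.

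**Figure D3:**
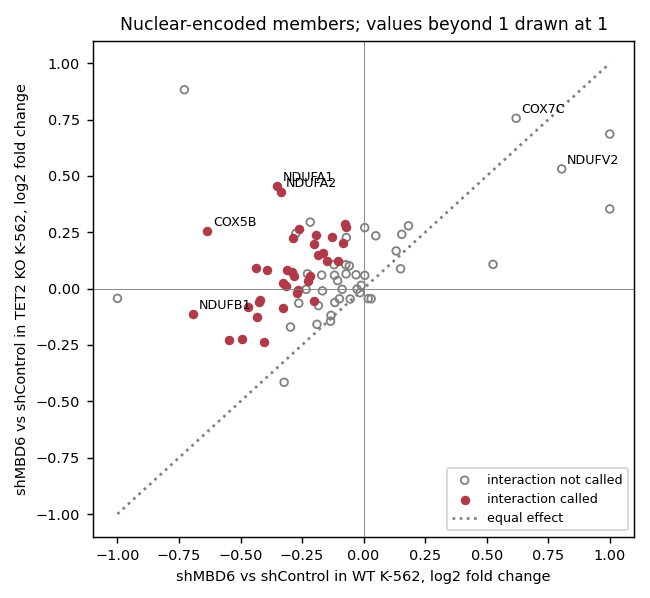
Log2 fold change of each nuclear-encoded member with shMBD6 against shControl in WT (horizontal) and TET2 KO (vertical) K-562, by TMM. Red points are the 36 members with a called interaction, all above the dotted line of equal effect. Under ERCC scaling 0 are positive and 73 negative, beside 56 and 13265 of all 17936 genes.

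COX5B (ENSG00000135940.6, chr2:97646062-97648383 in hg38, plus strand) had the largest interaction among the called members, 0.89 (SE 0.122, adjusted p 2.05e-05). It was at 299, 347 and 318 CPM in WT shControl, 215, 175 and 232 in WT shMBD6, 288, 218 and 270.0 in TET2 KO shControl and 321, 308 and 297 in TET2 KO shMBD6, so that the lowest library was WT shMBD6 replicate 2. NDUFA1 (chrX:119871832-119876662, plus strand) followed at 0.81 (SE 0.136), NDUFA2 (chr5:140638740-140647771, minus strand) at 0.76 (SE 0.107) and NDUFB1 at 0.58 (SE 0.095). NDUFA2 was at 39.9, 39.9 and 38.4 CPM in WT shControl, 30.1, 27.3 and 36.2 in WT shMBD6, 29.1, 27.8 and 28.6 in TET2 KO shControl and 39.7, 37.7 and 37.6 in TET2 KO shMBD6. Its levels in the first and the last of these groups overlap. NDUFB1 behaved otherwise, at 59.5, 60.9 and 59.4 CPM in TET2 KO shControl and 54.0, 55.5 and 56.8 in TET2 KO shMBD6, both below WT shControl. The tested nuclear members had a median of 2661.5 exon bases against 5326 for all tested protein-coding genes, so a change in the recovery of short transcripts would touch them, and the part of transcript length in these counts was not tested beyond the trend correction.

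The identical subunit c of the complex V rotor has 3 human genes. With shMBD6 in WT, ATP5MC1 fell by 0.43, ATP5MC2 by 0.32 and ATP5MC3 by 0.19. In TET2 KO only ATP5MC3 was called, with a rise of 0.15. By TMM the interaction was called for ATP5MC2 (0.33) and ATP5MC3 (0.34), and for ATP5MC1 (0.31) in a call that ended with the replicate block, with the length and GC trend taken out and without any 1 of 8 of the 12 libraries (all but replicates 1 and 3 of WT shControl and replicate 3 of both shMBD6 groups). UQCRH, the hinge protein of complex III, was at 332, 399 and 382 CPM in WT shControl, 313, 268 and 347 in WT shMBD6, 366, 271 and 313 in TET2 KO shControl and 386, 382 and 373 in TET2 KO shMBD6, with an interaction of 0.53 (SE 0.122). Its groups overlapped in the contrast of the genotypes with shControl. The intronless copy UQCRHL, with a sequence close to that of UQCRH, was not called. COX8A, the common form of its subunit, fell by 0.48 in TET2 KO with shControl and by 0.25 with shMBD6.

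**Figure D4:**
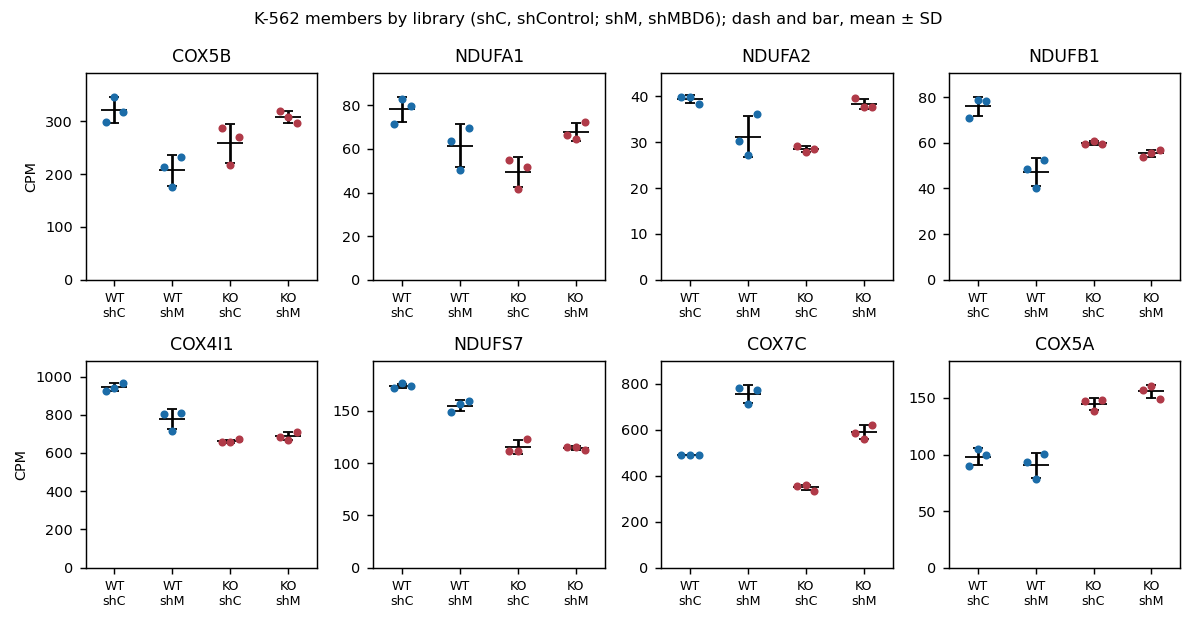
Level in CPM of 8 nuclear-encoded members in the 12 K-562 libraries (blue WT, red TET2 KO); dashes are means and bars SD over 3 libraries. COX5B, NDUFA1 and NDUFA2 are low in WT shMBD6 and TET2 KO shControl, COX4I1 and NDUFS7 in both TET2 KO groups, COX7C is higher with shMBD6 in both genotypes and COX5A in both TET2 KO groups, all by TMM.

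The promoters of 4 members are shown from 250 bases before to 50 bases after the start of the main transcript (MANE Select in GENCODE 44, sequence of the hg38 genome, 5′ to 3′ on the gene's strand), with capitals at the motifs searched. The motifs were the ETS core CCGGAAG that GABP binds, the YY1 core AAGATGGC and the full NRF1 palindrome, each on both strands, and the first 2 may share the letters AAG. COX5B and NDUFA1 led the interaction and hold ETS matches, NDUFS7 holds a YY1 match, and NDUFA2, next after them in the interaction, holds none.
COX5B (chr2:97645812-97646111, plus strand): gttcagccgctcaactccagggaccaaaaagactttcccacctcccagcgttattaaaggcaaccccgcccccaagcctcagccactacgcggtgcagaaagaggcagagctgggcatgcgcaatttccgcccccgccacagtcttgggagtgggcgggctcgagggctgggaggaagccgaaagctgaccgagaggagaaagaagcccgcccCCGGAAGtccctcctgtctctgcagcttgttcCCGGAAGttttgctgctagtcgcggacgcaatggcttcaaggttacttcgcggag
NDUFA1 (chrX:119871582-119871881, plus strand): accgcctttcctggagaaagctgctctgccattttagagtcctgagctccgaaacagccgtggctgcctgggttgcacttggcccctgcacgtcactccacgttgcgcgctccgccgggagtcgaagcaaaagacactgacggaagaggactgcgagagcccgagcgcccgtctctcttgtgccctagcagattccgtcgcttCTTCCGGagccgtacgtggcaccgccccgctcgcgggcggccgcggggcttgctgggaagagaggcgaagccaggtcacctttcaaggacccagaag
NDUFS7 (chr19:1383657-1383956, plus strand): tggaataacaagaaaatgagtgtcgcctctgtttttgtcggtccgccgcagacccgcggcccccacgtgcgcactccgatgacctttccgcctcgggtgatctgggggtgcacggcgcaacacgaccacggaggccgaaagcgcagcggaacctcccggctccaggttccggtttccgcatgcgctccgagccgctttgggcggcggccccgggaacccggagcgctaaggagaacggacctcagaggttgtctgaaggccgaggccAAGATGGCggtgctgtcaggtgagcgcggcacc
NDUFA2 (chr5:140647581-140647880, minus strand): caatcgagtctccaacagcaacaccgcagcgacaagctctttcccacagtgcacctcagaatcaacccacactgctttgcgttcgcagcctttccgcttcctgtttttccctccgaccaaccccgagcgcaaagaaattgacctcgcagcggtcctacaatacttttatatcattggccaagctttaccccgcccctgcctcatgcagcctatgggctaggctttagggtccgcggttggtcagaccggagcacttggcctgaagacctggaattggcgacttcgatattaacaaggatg

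Matches were more frequent among the members than over all promoters of the same length. Of the 84 human nuclear members with a window, 22 held the ETS letters (26.2%, beside 14.1% of 19061 promoters), 13 the YY1 letters (15.5% beside 4.10%) and 3 the NRF1 letters (3.57% beside 1.72%). In the mouse, where 64 members had a window in the RefSeq table, 13 held the ETS letters (20.3% beside 12.3% of 16514), 8 the YY1 letters (12.5% beside 3.29%) and 5 the NRF1 letters (7.81% beside 1.37%). Leaving out chromosome 8, 19 of the 21 tested members with the ETS letters were lower by TMM in TET2 KO against WT with shControl, and 35 of the 55 without them. Of all genes 20.7% were lower in that comparison. For the interaction, 13 of those 21 were positive and 21 of the 55, beside 10.3% of all genes. Of the 13 with the YY1 letters, 8 were lower in TET2 KO and 1 had a positive interaction, against 46 and 33 of the 63 without. ERCC scaling turns these directions too. A match is a run of letters and not evidence of binding, and these counts were not tested. The changes of other genes whose promoters hold the same letters were not counted, so the splits need not be particular to the members.

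The mitochondrial members of K-562 moved gene by gene. With shControl, TET2 KO had MT-ND2 at 4240, 4337 and 3742 CPM against 5828, 5343 and 5775 CPM in WT (-0.46, SE 0.0456, adjusted p 4.55e-08). With shMBD6 it was at 3977, 4285 and 4178 against 5182, 5372 and 4878 CPM (-0.31, SE 0.0455). MT-ND2 was thus below WT in all libraries of both contrasts, while its neighbour MT-ND1 differed by -0.14 in each. MT-CYB fell by 0.20 and 0.16, and MT-CO3 by 0.18 with shControl, beside an uncalled -0.01 with shMBD6. MT-ND4L rose by 0.27 and 0.34. In all, 4 were lower and 1 higher with shControl (38.5% called, beside 42.8% of all genes), and 4 lower and 2 higher with shMBD6 (46.2%, beside 44.5%), shares near those of all genes. ERCC scaling made all 13 and 10 higher, with 0 lower, beside 15959 and 9700 of all 17936 genes higher.

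Knockdown of MBD6 lowered 7 mitochondrial members and raised 0 in WT by TMM, and lowered 7 and raised 1 in TET2 KO, beside 19.2% and 16.3% of all genes lower. ERCC scaling made 13 higher in WT, beside 15437 of all 17936 genes. In TET2 KO it made 3 higher and 2 lower, beside 6869 and 1055. MT-CO3 was at 4302, 4554 and 4526 CPM with shMBD6 and 5619, 5649 and 5634 CPM with shControl in WT (-0.34, SE 0.0294, adjusted p 1.53e-08). MT-ND1 was at 1940, 1988 and 2024 against 2505, 2475 and 2479 CPM in WT (-0.33, SE 0.0319). In TET2 KO MT-ND1 was at 1718, 1872 and 1814 against 2306, 2321 and 2146 CPM (-0.33, SE 0.032), and MT-ND4 (-0.29) and MT-CO2 (-0.26) also fell. With the length and GC trend taken out, 3 were lower and 2 higher in WT. MT-ND5 lay between -0.02 and 0.01 in all 4 contrasts and was called in none.

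MT-ND3 had the one large interaction among them. It was at 242, 272 and 259 CPM in WT shControl and 217, 169 and 237 in WT shMBD6, a fall by 0.31 whose call ended under DESeq2, with the length and GC trend taken out, and without WT shControl replicate 2 (-0.27) or WT shMBD6 replicate 2 (-0.18), and it reached 268, 307 and 311 CPM in TET2 KO shMBD6. The interaction was 0.65 (SE 0.131, adjusted p 0.00116). MT-CO3 (0.17) was also positive and MT-ND4 (-0.22) negative. With the length and GC trend taken out, 1 was positive and 5 negative. Under ERCC scaling 0 were positive and 12 negative, beside 56 and 13265 of all 17936 genes.

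**Figure D5:**
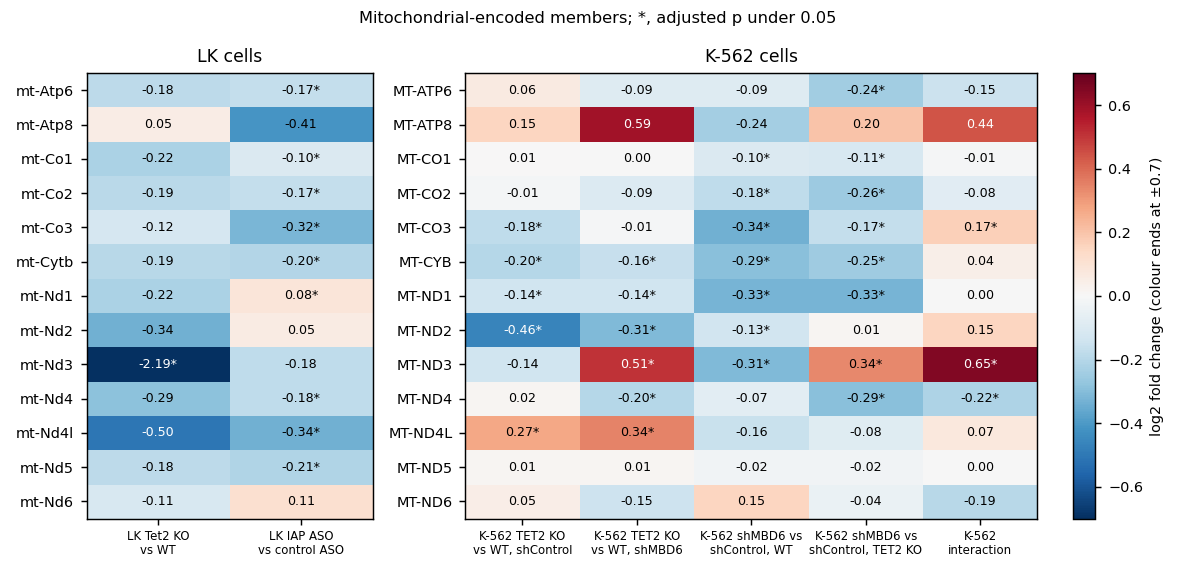
Log2 fold change by TMM of the 13 mitochondrial-encoded members in the LK (left) and K-562 (right) comparisons, with a star where called. MT-ND2 is lower in TET2 KO in both contrasts (-0.46 and -0.31) and MT-ND1 with shMBD6 in both genotypes (-0.33 each). Under ERCC scaling 13, 10, 13 and 3 members were called higher and 0, 0, 0 and 2 lower in the 4 K-562 contrasts in the order drawn. Of all 17936 genes 15959, 9700, 15437 and 6869 were called higher in these. The mouse mt-Co2, mt-Co3, mt-Atp6, mt-Nd3 and mt-Nd4l are uncertain because of nuclear copies.

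Genes around the pathway were listed by hand and counted by TMM, with the shares over all genes given above (20.7% lower and 22.2% higher for TET2 KO with shControl). In TET2 KO against WT with shControl, 33 of 78 mitochondrial ribosomal protein genes were lower and 10 higher, and 10 of 11 genes for uncoupling and defence against reactive oxygen were lower and 0 higher, led by AIFM1 (-0.67), an oxidoreductase of the intermembrane space. Maintenance and transcription of mitochondrial DNA had 10 of 15 higher and 1 lower, including the mitochondrial topoisomerase TOP1MT (0.96) and MTERF3 (0.75), which both lie on the long arm of chromosome 8 with its median of 0.44. Of complex II, which has no mitochondrial-encoded subunit, 3 of 4 genes were lower (SDHD -0.40, SDHB -0.29). The tricarboxylic acid cycle was mixed, with 6 of 13 lower and 4 higher, and IDH3G (-0.78) and IDH3A (0.53), subunits of 1 enzyme, moved apart, the latter on chromosome 15 with its median of 0.55. The part of these chromosomes was not tested. The regulator ESRRA, a nuclear receptor of mitochondrial genes, fell by 0.52 with shControl and had an interaction of 0.54. The interaction was positive for 8 of 11 genes of uncoupling and oxygen defence and negative for 1, and positive for 21 and negative for 8 of the 78 mitochondrial ribosomal protein genes, beside 10.3% and 11% of all genes.

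With shMBD6 against shControl, 8 of 18 glycolysis genes were higher and 3 lower in WT, beside 20.4% and 19.2% of all genes, and 10 were higher and 3 lower in TET2 KO, beside 18.5% and 16.3%, with ALDOC at 1.04 and 0.92. Of 78 mitochondrial ribosomal protein genes, 31 were lower and 11 higher in WT and 19 lower and 5 higher in TET2 KO. Of 16 complex I assembly genes 5 were lower and 0 higher in each genotype. Of 20 complex IV assembly genes 6 were lower in WT and 3 in TET2 KO, the latter near the share of all genes, with 0 higher in both. The coactivator PPRC1 rose by 0.48 in WT and had an interaction of -0.45. In LK cells 3 of 77 mitochondrial ribosomal protein genes (Mrps12 -0.64) and Cycs (-0.40) were lower in Tet2 KO, and 0 genes of any of the 13 lists were higher. Of all genes 2.31% were called lower and 4.14% higher there, so the ribosomal count lay near that share.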

How the data were processed

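RNA was sequenced from 8 groups of 3 libraries. Per the submitters' notes, reads were trimmed with Trimmomatic 0.39, aligned with HISAT2 2.2.1 and counted per gene with HTSeq 0.12.4. The deposited values are raw counts per gene, not normalised, which the authors made for mm10 or hg38 with ERCC sequences in K-562. The strand setting of the counting is not given in the sources used here, so overlapping genes are uncertain. Rows that name no gene (16.7% to 19.3%, 22.9% to 25.4% and 10.4% to 13.8% of reads outside any gene in LK Tet2, LK ASO and K-562) stayed out of library sizes. Symbols and exon lengths came from GENCODE M21 and 44.

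Differences came from the quasi-likelihood test of edgeR 4.0.16 under R 4.3.3, after filterByExpr and TMM scaling, with Benjamini-Hochberg adjustment over all genes tested. The LK experiments were fitted apart (6 libraries each) and the 12 K-562 libraries together. The tests were tested on simulated counts first. Named members were up to 6 nuclear (4 for the interaction) and 3 mitochondrial ones each way with the largest change among those called, at 5 CPM or more in the higher group and with groups that did not overlap (the last not for the interaction), the isoform pairs, members called one way in 5 of the 6 comparisons other than the interaction (there were none), and up to 2 genes per list. Some items that this rule names are not reported here. The members and lists were chosen with earlier results of these data known. Counting error and replicate spread enter the tests together, and the reads carry no molecular identifiers. Alternatives were DESeq2 1.42.0, RLE scaling, scaling to nuclear protein-coding genes or ERCC, no low-count filter, a replicate block, other sets of libraries, a Y-linked covariate and, chosen after seeing the data, removal of a trend with gene length and GC content.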

Additional observations from a re-analysis of the deposited data

Results flagged for a closer look

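These results differed between the WT and TET2 KO genotypes of K-562 by the interaction test of edgeR, all scaled by TMM. The response to shMBD6 differed for 36 of 80 nuclear members (45.0%) and 3 of 13 mitochondrial members (23.1%), beside 21.3% of all genes, so that the mitochondrial share was near that of all genes. The single members named by the rule were COX5B at an interaction log2 fold change of 0.89, NDUFA1 at 0.81, NDUFA2 at 0.76 and NDUFB1 at 0.58 among nuclear genes, and MT-ND3 at 0.65, MT-CO3 at 0.17 and MT-ND4 at -0.22 among mitochondrial genes. ERCC scaling turned the nuclear count to 0 positive and 73 negative, beside 56 and 13265 of all 17936 genes. Groups of 3 libraries were too small for a test of single outlying libraries.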

How the results depend on the processing

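Directions in K-562 depended on the scaling and few other choices moved a count by over 1.5 times. ERCC scaling gave 78 nuclear and 13 mitochondrial members higher for TET2 KO with shControl, 59 (57 higher, 2 lower) and 10 with shMBD6, 77 and 13 for shMBD6 in WT, 58 (57 higher, 1 lower) and 5 (3 higher, 2 lower) for shMBD6 in TET2 KO, and 73 and 12, all negative, for the interaction. Of all 17936 genes ERCC scaling called 15959, 9700, 15437 and 6869 higher in the same contrasts, and 13265 negative for the interaction. The cause was not tested. Without the low-count filter, the mitochondrial counts were 2 for Tet2, 10 for TET2 KO with shMBD6, 12 for shMBD6 in WT and 7 for the interaction. With the length and GC trend taken out they were 2 for Tet2, 11 for TET2 KO with shMBD6 and 6 for the interaction (1 positive, 5 negative). For LK Tet2, nuclear and mitochondrial counts were 4 and 2 under DESeq2, beside 2010 of all 17481 genes, and 21 and 5 at its unadjusted p, beside 3834. A fit of all 12 LK libraries called 6 nuclear members, beside 2490 of 18677 genes. With the Y-linked covariate 0 and 0 were called, beside 541 of 17481 genes. The fit of 12 gave 15 and 0 for the ASO comparison, beside 4322 of 18677 genes. The unadjusted DESeq2 p gave 5 mitochondrial interactions, beside 5696 of 17936 genes.

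Replicate numbers did not pair the samples: deviations of same-numbered libraries correlated at -0.03 to 0.02 over 18 pairs in K-562, 0.02 to 0.05 in LK ASO and -0.14 to -0.04 in LK Tet2. The replicate block left 0 nuclear members called for Tet2 and 35 for the ASO, and moved no other count of members by over 1.5 times.

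Leaving out 1 library at a time gave 0 to 4 nuclear and 0 to 3 mitochondrial members for Tet2, 21 to 44 and 5 to 9 for the ASO, 49 to 58 and 4 to 6 for TET2 KO with shControl, 38 to 50 and 6 to 8 with shMBD6, 38 to 46 and 5 to 7 for shMBD6 in WT, 18 to 27 and 6 to 8 in TET2 KO, and 27 to 41 and 3 to 4 for the interaction. Nuclear calls for Tet2 fell to 0 without any 1 WT library or KO replicate 2 and rose to 4 without KO replicate 3. The mitochondrial call fell to 0 without any 1 WT library, and 3 were called without KO replicate 1. Of the named members' fits apart from ERCC scaling, which was run for counts and medians, 32 lost a call, 6 gained one and 1236 did neither, and no sign turned. With libraries left out the numbers were 64, 15 and 1157.

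As percent of protein-coding counts, the shares that moved were, for mitochondrial and nuclear members, 1.29% and 0.913% in LK WT, 1.14% and 0.885% in Tet2 KO, 1.98% and 0.765% with the control ASO, 1.84% and 0.792% with the IAP ASO and 5.27% and 1.25% in WT shControl, then 4.69% (mitochondrial) in WT shMBD6, and 1.08% and 1.11% (nuclear) in TET2 KO with shControl and shMBD6. Genes under 1 CPM, most tissue-specific isoforms among them, carry wide errors, and the effect of depth was not tested.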
